A study of Mus musculus with 6 samples.

Results

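Fc gamma receptors are the proteins with which macrophages bind the constant region of IgG antibodies, and 7 genes of this system were described in macrophages from a mouse tumor. They were the activating receptors Fcgr1, Fcgr3 and Fcgr4, the inhibitory receptor Fcgr2b, the signalling chain Fcer1g, the kinase Syk and the neonatal Fc receptor Fcgrt. The members were the rows of the count table that carry these symbols, 7 of the 22377 genes listed, and all 7 were among the 13884 genes that passed the filter on low counts. RNA was sequenced in 6 libraries of tumor-associated macrophages (TAMs). They were sorted as CD45+ CD11b+ F4/80+ cells from subcutaneous LLC tumors, which grow from a line of mouse Lewis lung carcinoma cells. The 3 libraries labelled wt (wt1 to wt3) are taken as the Npm1+/+ group and the 3 labelled ko and knockdown (ko1 to ko3) as the Npm1+/- group, since these are the genotypes of the study, which used young mice of both sexes. Npm1 encodes the nucleolar protein nucleophosmin, and its heterozygous loss was carried by every cell of the host, not by macrophages alone, while the implanted tumor cells were of the LLC line in both groups. How the Npm1 allele was made is described in an earlier publication and is not given in the sources used here.

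An activating Fc gamma receptor has no signalling motif of its own and relies on the common gamma chain encoded by Fcer1g, whose phosphorylated tyrosines recruit Syk. Fcgr1 encodes the high-affinity receptor CD64, Fcgr3 encodes CD16, and Fcgr4 encodes a receptor of intermediate affinity for certain IgG subclasses. Fcgr2b encodes CD32B, which carries an inhibitory motif and recruits the phosphatase encoded by Inpp5d. In macrophages the balance between these receptors sets the threshold for engulfing antibody-coated tumor cells. Fcgrt encodes the heavy chain of the neonatal Fc receptor, which pairs with beta-2 microglobulin and returns IgG from endosomes to the cell surface.

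In GRCm38 coordinates (GENCODE vM21), 4 of the 7 genes lie within 275749 bp of chromosome 1, in the order Fcgr2b (chr1:170958617-170976547, minus strand), Fcgr4 (chr1:171018920-171029761, plus strand), Fcgr3 (chr1:171051174-171064935, minus strand) and Fcer1g (chr1:171229572-171234365, minus strand). Fcgr4 lies between both of its neighbours with gaps of 42372 and 21412 bp, and Fcer1g lies 164636 bp beyond Fcgr3. Fcgr1 lies at chr3:96282909-96293969 on the minus strand, Fcgrt at chr7:45092990-45103851 on the minus strand and Syk at chr13:52583173-52648792 on the plus strand. The annotation places an antisense RNA gene over Fcgr2b and over Fcgrt, and since the strand setting of the counting is not given in the sources used here, reads of these partners cannot be told apart. Fcgr2b and Fcgr3 are related in sequence, and 9.58% of the 50-base windows of the Fcgr3 transcripts also occur in transcripts of Fcgr2b. At 100 bases that share was 2.54%. The other 5 members shared no 50-base window with any other gene.

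RefSeq promoter sequences (GRCm38.p6) were matched for all 7 genes by symbol, and the stretches upstream of the start sites of the 3 activating receptors, the inhibitory receptor and the signalling chain are shown because these genes are compared below. Only bases outside annotated exons are printed, 5' to 3' on the strand of the gene. Capitals mark GAGGAA or its reverse complement TTCCTC, a site that the macrophage factor PU.1 can bind, and TTCNNNGAA, the spacing bound by STAT proteins. Both motifs were chosen after the sequences had been seen. The windows are chr3:96293970-96294089 for Fcgr1, chr1:171059404-171059523 for Fcgr3, chr1:171018806-171018919 for Fcgr4, chr1:170976128-170976174 for Fcgr2b and chr1:171234366-171234469 for Fcer1g.
Fcgr1: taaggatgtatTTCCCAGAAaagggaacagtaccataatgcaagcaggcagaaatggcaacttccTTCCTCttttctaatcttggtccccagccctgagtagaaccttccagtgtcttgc
Fcgr3: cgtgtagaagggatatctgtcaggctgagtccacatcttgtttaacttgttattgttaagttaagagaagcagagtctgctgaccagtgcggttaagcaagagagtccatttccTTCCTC
Fcgr4: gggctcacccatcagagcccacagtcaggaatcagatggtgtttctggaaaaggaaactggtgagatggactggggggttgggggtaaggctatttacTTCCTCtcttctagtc
Fcgr2b: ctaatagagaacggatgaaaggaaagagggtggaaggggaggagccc
Fcer1g: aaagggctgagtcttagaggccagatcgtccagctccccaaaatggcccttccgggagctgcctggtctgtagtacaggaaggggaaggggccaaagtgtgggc

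The letters TTCCTC stood 55 bases upstream of the Fcgr1 start site, 22 bases upstream of that of Fcgr4 and 6 bases upstream of the first of the 2 RefSeq start sites of Fcgr3. All 3 activating receptor genes therefore held this motif within 120 bases of a start site, as did the second of the 2 start sites of Syk, where it lies 9 bases upstream on the other strand. The 120-base windows of Fcgr2b, Fcer1g and Fcgrt did not hold these letters. The shorter GGAA within the motif does occur in the printed stretches of Fcgr2b and Fcer1g. Among all 32851 RefSeq promoters, 11.6% held the motif in the same window on either strand. Fcgr1 alone among the members held TTCNNNGAA, as TTCCCAGAA 109 bases upstream of its start, and 3.15% of all promoters held it in the same window. The 2 motifs do not overlap in any of these windows.

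Each library held between 36550775 and 38147320 counts, and a count of 0 allows up to 3 counts, or 0.0716 to 0.0846 CPM (counts scaled to libraries of equal size), by counting error alone. The labels call each library a separate biosample, but a legend of the paper gives fewer individual mice per group than there are libraries. Whether the 3 libraries of a group come from 3 mice is therefore not known, and each SD, n and p-value measures the spread between libraries, part of which may be technical. Npm1 mRNA itself was not lower in the libraries labelled ko, with 142, 380 and 381 CPM in wt1 to wt3 and 441, 499 and 343 CPM in ko1 to ko3, so every direction below rests on the labels. Library wt1 stood apart from the other 5 on the first principal component of all genes (68.0% of the variance, -108 against -4.54 to 52.0). The labels name tumor tissue, TRIzol and a small RNA library, where the paper describes sorted cells and a low-input cDNA kit. The staining protocol includes a block with an antibody to CD16/32, the products of Fcgr3 and Fcgr2b. All 12 macrophage markers were present, led by Lyz2 (5667 to 14144 CPM), and the sorting markers Itgam and Adgre1 were at 1492 to 2975 and 127 to 302 CPM.

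Per transcript length, Fcer1g was by far the most abundant member in these macrophages. Its deposited FPKM (fragment count divided by gene length and library total) was 1018, 906 and 875 in wt1 to wt3. In ko1 to ko3 it was 749, 628 and 837, and the median of the 6 libraries was 856 FPKM. Its mean over the 6 libraries lay at the 99.6th percentile of all listed genes. Fcgr2b (median 190, range 138 to 205 FPKM) and Fcgr3 (median 184, range 114 to 236 FPKM) came next and their ranges overlapped, with Fcgr2b above Fcgr3 in 4 of 6 libraries. The order of genes of similar level, and ratios and shares between genes, depend on the single length used for each gene. Fcgr2b and Fcgr3 both stood above Fcgr1 in every library. Fcgr1 (median 69.5, range 56.1 to 99.7 FPKM), Fcgr4 (median 65.1, range 46.4 to 88.4 FPKM) and Syk (median 64.8, range 62.5 to 75.8 FPKM) had overlapping ranges. Fcgr1 was above Fcgr4 in 6 of 6 libraries, whereas Fcgr4 and Syk changed order, with Fcgr4 above in 3. Fcgrt was the least abundant, at 14.5 to 19.3 FPKM, and its mean still lay at the 85.7th percentile of all listed genes.

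**Figure D1:**
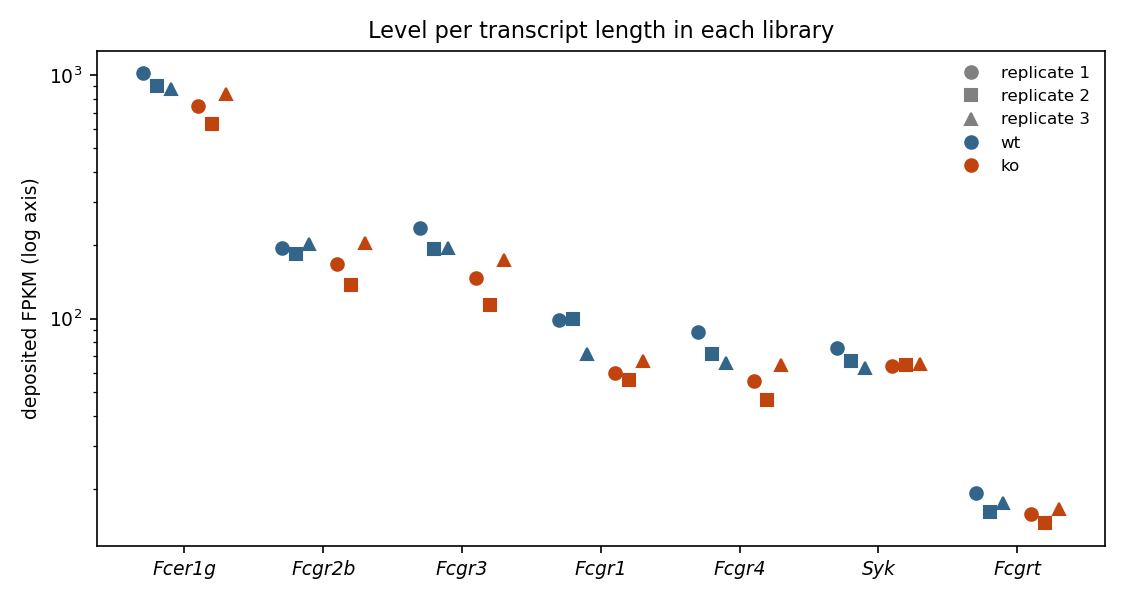
Deposited FPKM (log axis) of the 7 genes in each library, in blue for wt and red for ko, with the shape of a point giving the replicate number. Fcer1g lies between 628 and 1018 FPKM in all 6 libraries, above every other gene, and Fcgrt lies lowest, between 14.5 and 19.3 FPKM.

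All 3 activating receptors had lower mean levels in the libraries labelled ko, at 61.3% of the wt mean for Fcgr1, 63.7% for Fcgr3 and 67.3% for Fcgr4, while the inhibitory receptor Fcgr2b was at 80.2%. Fcer1g was at 72.0%, Syk at 85.0% and Fcgrt at 80.1%. None of the 7 passed an adjusted p of 0.05 in edgeR's quasi-likelihood test, which called 0% of the 13884 genes tested. The values below are CPM after scaling of the libraries by the TMM method, a level that can be compared between libraries for 1 gene but not between genes. In such bulk samples, fewer cells of a type and less RNA per cell cannot be told apart.

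Fcgr1 was at 273, 277 and 189 CPM in wt1 to wt3 (mean 246 ± 49.6, SD, n = 3) and at 147, 127 and 180 CPM in ko1 to ko3 (151 ± 26.7, SD, n = 3). Every library labelled ko lay below every wt library, with wt3 and ko3 close to each other. The log2 fold change was -0.71 (SE 0.20, 95% interval -1.16 to -0.25), with an adjusted p of 0.328 and an unadjusted p of 0.00766 by edgeR's quasi-likelihood test. This was the largest difference among the members.

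Fcgr3 was at 784, 642 and 612 CPM in wt1 to wt3 (679 ± 91.8, SD, n = 3) and at 435, 307 and 557 CPM in ko1 to ko3 (433 ± 125, SD, n = 3). The groups did not overlap, and ko3 was the library labelled ko nearest to the wt range. The log2 fold change was -0.65 (SE 0.23, 95% interval -1.18 to -0.12), with an adjusted p of 0.328 and an unadjusted p of 0.022 by edgeR's quasi-likelihood test.

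Fcgr4 was at 119, 96.0 and 83.3 CPM in wt1 to wt3 (99.3 ± 17.8, SD, n = 3) and at 66.2, 50.6 and 83.5 CPM in ko1 to ko3 (66.8 ± 16.5, SD, n = 3). The groups overlapped only in that ko3 equalled wt3 to within 1 CPM. In the deposited FPKM they did not overlap, with ko3 at 64.7 and wt3 at 65.5. The log2 fold change was -0.57 (SE 0.21, 95% interval -1.06 to -0.082), with an adjusted p of 0.328 and an unadjusted p of 0.0278 by edgeR's quasi-likelihood test.

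Fcgr2b was at 792, 751 and 785 CPM in wt1 to wt3 (776 ± 21.97, SD, n = 3), which are close to each other. In ko1 to ko3 it was at 607, 456 and 803 CPM (622 ± 174, SD, n = 3), so that 2 libraries labelled ko lay below the wt range and ko3 lay above it. On the log2 scale its SD was 0.041 among wt libraries, the smallest of the 7 genes, and 0.41 among those labelled ko. The log2 fold change was -0.32 (SE 0.21, 95% interval -0.80 to 0.16, adjusted p 0.404 by edgeR's quasi-likelihood test) and depended on single libraries of the ko label. It was -0.15 without ko2 (adjusted p 0.755 by edgeR's quasi-likelihood test) and -0.55 without ko3 (adjusted p 0.264 by the same test).

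Fcer1g, the chain that the activating receptors need for surface expression and signalling, was at 719, 639 and 586 CPM in wt1 to wt3 (648 ± 66.8, SD, n = 3) and at 469, 361 and 569 CPM in ko1 to ko3 (466 ± 104, SD, n = 3). Every library labelled ko lay below every wt library, ko3 by a small margin under wt3. The log2 fold change was -0.47 (SE 0.19, 95% interval -0.91 to -0.039), with an adjusted p of 0.328 and an unadjusted p of 0.0365 by edgeR's quasi-likelihood test.

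Syk was at 989, 875 and 774 CPM in wt1 to wt3 (879 ± 108, SD, n = 3) and at 739, 686 and 817 CPM in ko1 to ko3 (747 ± 65.8, SD, n = 3). The groups overlapped, with ko3 above wt3. Syk had the smallest difference of the 7 genes, a log2 fold change of -0.23 (SE 0.15, 95% interval -0.58 to 0.11, adjusted p 0.395 by edgeR's quasi-likelihood test).

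Fcgrt was at 36.2, 30.2 and 31.3 CPM in wt1 to wt3 (32.6 ± 3.22, SD, n = 3) and at 26.3, 22.1 and 29.9 CPM in ko1 to ko3 (26.1 ± 3.90, SD, n = 3). The groups did not overlap, but ko3 and wt2 were separated by less than 1 CPM. In the deposited FPKM they did overlap, with ko3 at 16.5 and wt2 at 16.1. The log2 fold change was -0.32 (SE 0.16, 95% interval -0.69 to 0.049, adjusted p 0.341 by edgeR's quasi-likelihood test).

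**Figure D2:**
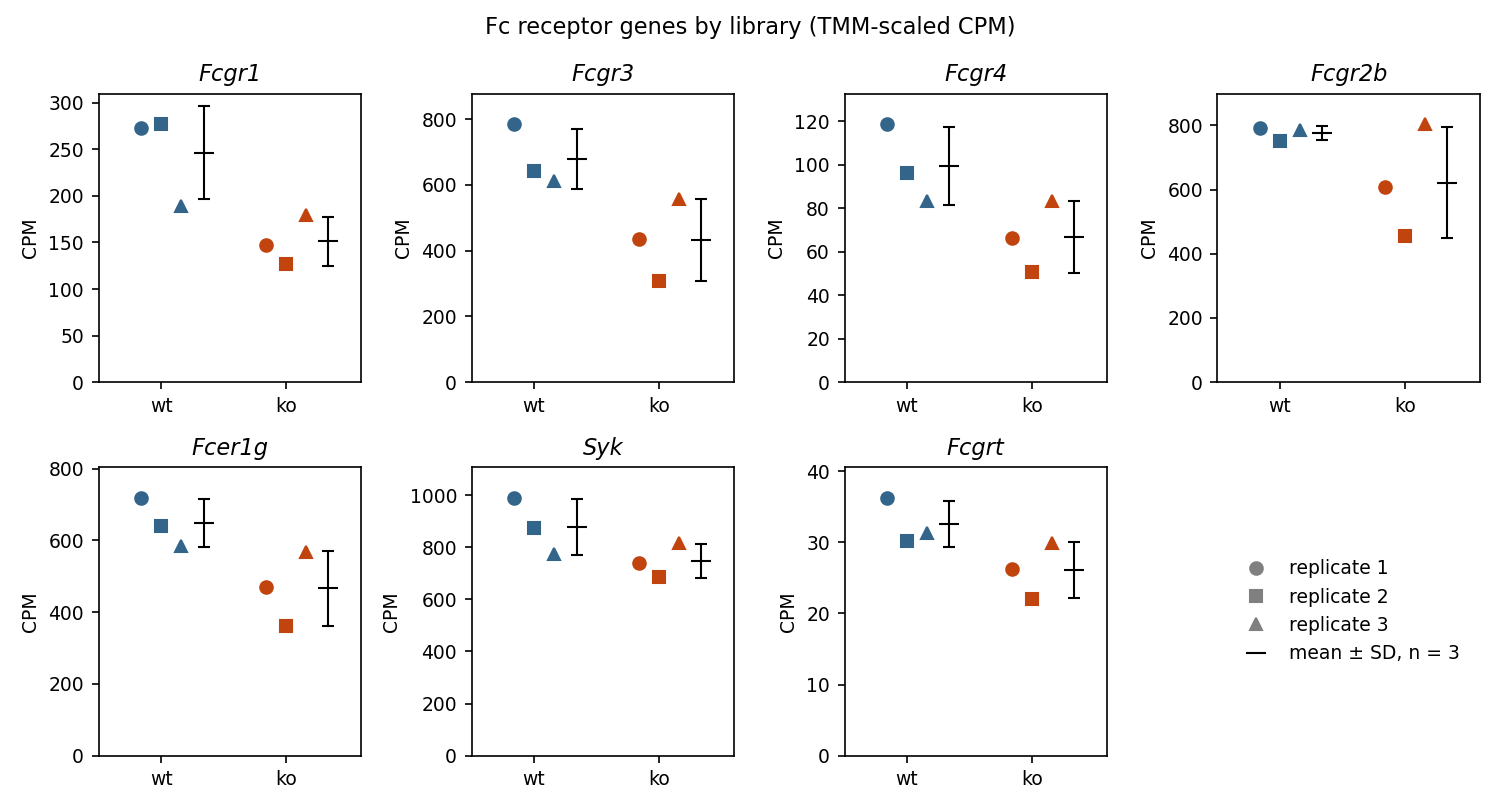
TMM-scaled CPM of each gene in the 3 wt libraries (blue) and the 3 libraries labelled ko (red), with the group mean and SD as a bar beside the points and each axis starting at 0. The library ko3 (red triangle) is the highest of its group in all 7 panels, reaching 803 CPM for Fcgr2b and 817 CPM for Syk.

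All 7 log2 fold changes were below 0, as were those of 47.9% of all genes tested, and 4 of the 7 (Fcgr1, Fcgr3, Fcgr4 and Fcer1g) had an unadjusted p under 0.05 in the direction of lower levels in the libraries labelled ko, as had 8.31% of all genes (15.2%, or 2112 genes, in either direction). In TMM-scaled CPM, every library labelled ko lay below every wt library in 4 of the 7 (Fcgr1, Fcgr3, Fcer1g and Fcgrt), beside 12.6% of all genes. The exact two-sided permutation test over the 6 libraries gave p = 0.1, the smallest that 3 against 3 allows, for these 4 genes, 0.2 for Fcgr4 and Syk, and 0.4 for Fcgr2b. DESeq2 called 36 genes at an adjusted p of 0.05, 0.263% of those it tested, and none was a member, with adjusted p-values of 0.137 for Fcgr1, 0.186 for Fcgr3 and 0.222 to 0.446 for the other 5.

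The library ko3 was the highest of its group for all 7 genes, and wt1 was the highest of its group for 6 of them. On the first principal component of all genes ko3 lay at 11.7, within the range of the libraries other than wt1. Leaving out the highest library labelled ko lowers the mean of that group for every member by construction, so the calls without wt1 and ko3 do not add support to those with 6 libraries. On these 4 libraries edgeR again called no gene, with 3290 at an unadjusted p under 0.05, whereas DESeq2 called 1283, of which 750 were lower in the libraries labelled ko (6.21% of those tested). Among the latter were 5 members, Fcgr1 (log2 fold change -0.81, adjusted p 0.00375), Fcgr3 (-0.80, 0.00196), Fcgr4 (-0.66, 0.0150), Fcer1g (-0.60, 0.0154) and Fcgr2b (-0.57, 0.0226). Without wt1 alone, edgeR's log2 fold changes ran from -0.63 for Fcgr1 to -0.14 for Syk and were all below 0.

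The share of the inhibitory receptor among the 4 Fc gamma receptors was larger in the libraries labelled ko. In FPKM, the sum of Fcgr1, Fcgr3 and Fcgr4 over Fcgr2b was 2.17, 1.97 and 1.63 in wt1 to wt3 (1.93 ± 0.274, SD, n = 3) and 1.56, 1.57 and 1.49 in ko1 to ko3 (1.54 ± 0.0418, SD, n = 3). The groups did not overlap, and wt3 lay close to the libraries labelled ko. Unlike the FPKM of the 4 receptors themselves, this ratio was nearly the same in all 3 libraries labelled ko, ko3 included. No test was made of a score over the members, and leaving out each library in turn gave a log2 difference in this ratio between -0.43 and -0.22, beside -0.31 with all 6.

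The ratio of Fcgr3 to Fcgr2b was 1.21, 1.05 and 0.955 in wt1 to wt3 and 0.877, 0.823 and 0.849 in ko1 to ko3. The deposited FPKM rest on a single length per gene, 3096 bp for Fcgr3 and 3791 bp for Fcgr2b. On these lengths CD16 mRNA exceeded CD32B mRNA in 2 of 3 wt libraries and in 0 of 3 libraries labelled ko. The GENCODE transcripts of Fcgr3 hold 1733 distinct 50-base windows, fewer than the length used. Another length would change this ratio by the same factor in every library, so whether it exceeds 1 depends on the lengths. The ratios of Fcgr1 to Fcgr2b (0.353 to 0.540 against 0.328 to 0.406) and of Fcgr4 to Fcgr2b (0.322 to 0.454 against 0.315 to 0.337) overlapped between the groups. Fcgr2b made up 31.5, 33.6 and 38.0% of the 4 receptors in wt1 to wt3 and 39.0, 39.0 and 40.1% in ko1 to ko3.

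Within the activating receptors the shares of Fcgr3 and Fcgr1 overlapped between the groups. Fcgr3 made up 55.8% ± 2.78 (SD, n = 3) of their summed FPKM in wt libraries and 55.2% ± 2.32 (SD, n = 3) in those labelled ko, and Fcgr1 24.1% ± 2.92 (SD, n = 3) and 23.5% ± 2.12 (SD, n = 3). The share of Fcgr4 was slightly higher in every library labelled ko, at 20.9, 19.6 and 19.8% in wt1 to wt3 and 21.2, 21.5 and 21.1% in ko1 to ko3. The signalling chain exceeded the sum of the receptors it serves in every library. Fcer1g was 2.41, 2.48 and 2.64 times that sum in wt1 to wt3 and 2.85, 2.91 and 2.73 times in ko1 to ko3, so the ratio was higher in all libraries labelled ko.

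**Figure D3:**
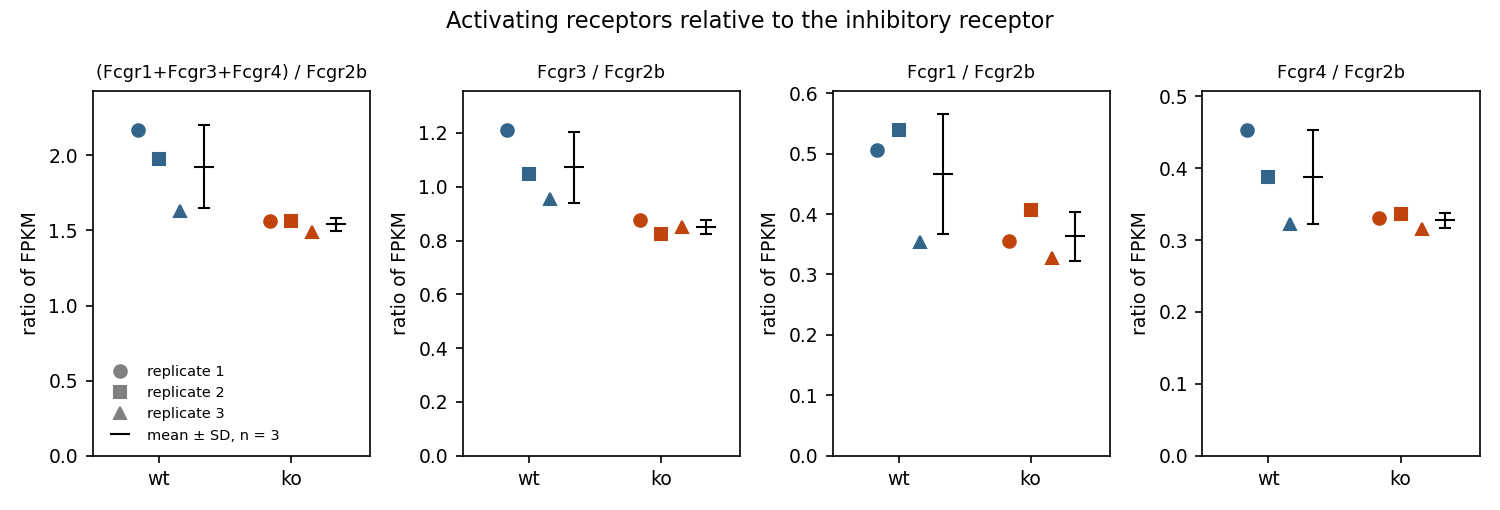
Ratios of FPKM between activating receptors and Fcgr2b in each library, with group mean and SD, on axes that start at 0. The ratio of the 3 activating receptors to Fcgr2b lies between 1.49 and 1.57 in the libraries labelled ko and between 1.63 and 2.17 in the wt libraries.

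The macrophage markers also had lower levels in the libraries labelled ko, so the members were set against them. The mean log2 CPM of the 12 macrophage markers was 9.16, 9.07 and 9.06 in wt1 to wt3 and 8.59, 8.25 and 8.96 in ko1 to ko3, a difference of -0.49, and the summed level of the list was 21708 to 27063 CPM in wt libraries and 13120 to 22176 CPM in those labelled ko. All 12 had a log2 fold change below 0 and the median was -0.52, beside -0.47 for the 7 members and 0.02 for all genes tested. Of the other lists, markers of monocytes (median -0.69, 7 of 7 below 0) and neutrophils (-0.65, 8 of 8 tested) were lower, whereas those of T cells (1.35, 8 of 8 tested above 0), NK cells (1.02, 9 of 9) fibroblasts (1.48, 8 of 8) and epithelial or carcinoma cells (0.76, 2 of 3 tested) were higher, with 0 of these genes called by edgeR or DESeq2. The summed T cell markers were at 23.7 to 110 CPM in wt libraries and 85.1 to 237 CPM in those labelled ko, NK cell markers at 62.7 to 115 and 98.5 to 261 CPM, and fibroblast markers at 23.8 to 477 and 345 to 688 CPM. The summed epithelial or carcinoma markers, led by Krt8 except in wt1, were at 35.2, 137 and 79.9 CPM in wt1 to wt3 and at 191, 183 and 129 CPM in ko1 to ko3, with overlapping groups. No marker was at 0 in every library. Whether these marker levels reflect cell content, and what part that would have in the levels of the members, was not tested.

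Relative to the macrophage markers, the members differed in direction. Fcgr3 remained lower, with a log2 level above the marker mean of 0.459, 0.259 and 0.200 in wt1 to wt3 and 0.169, 0.0146 and 0.162 in ko1 to ko3, without overlap, as was the case for 0.699% of all genes in this direction. Fcgr2b was higher, at 0.473, 0.485 and 0.558 in wt1 to wt3 and 0.651, 0.587 and 0.690 in ko1 to ko3, also without overlap, but 34.6% of all genes were higher without overlap on this scale. Fcer1g had a difference of -0.00035 between the group means on this scale, where its wt libraries ran from 0.136 to 0.333 and those labelled ko from 0.192 to 0.280. Fcgr1 (difference -0.21), Fcgr4 (-0.093), Fcgrt (0.17) and Syk (0.26) overlapped between the groups. When the libraries were scaled to these markers in edgeR, an alternative chosen after the data had been seen, the log2 fold changes were -0.22 for Fcgr1, -0.19 for Fcgr3, -0.10 for Fcgr4, -0.0021 for Fcer1g, 0.14 for Fcgr2b, 0.17 for Fcgrt and 0.27 for Syk, none of them called. This scaling moved the median of all genes to 0.54, and all 7 members lay below that median.

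**Figure D4:**
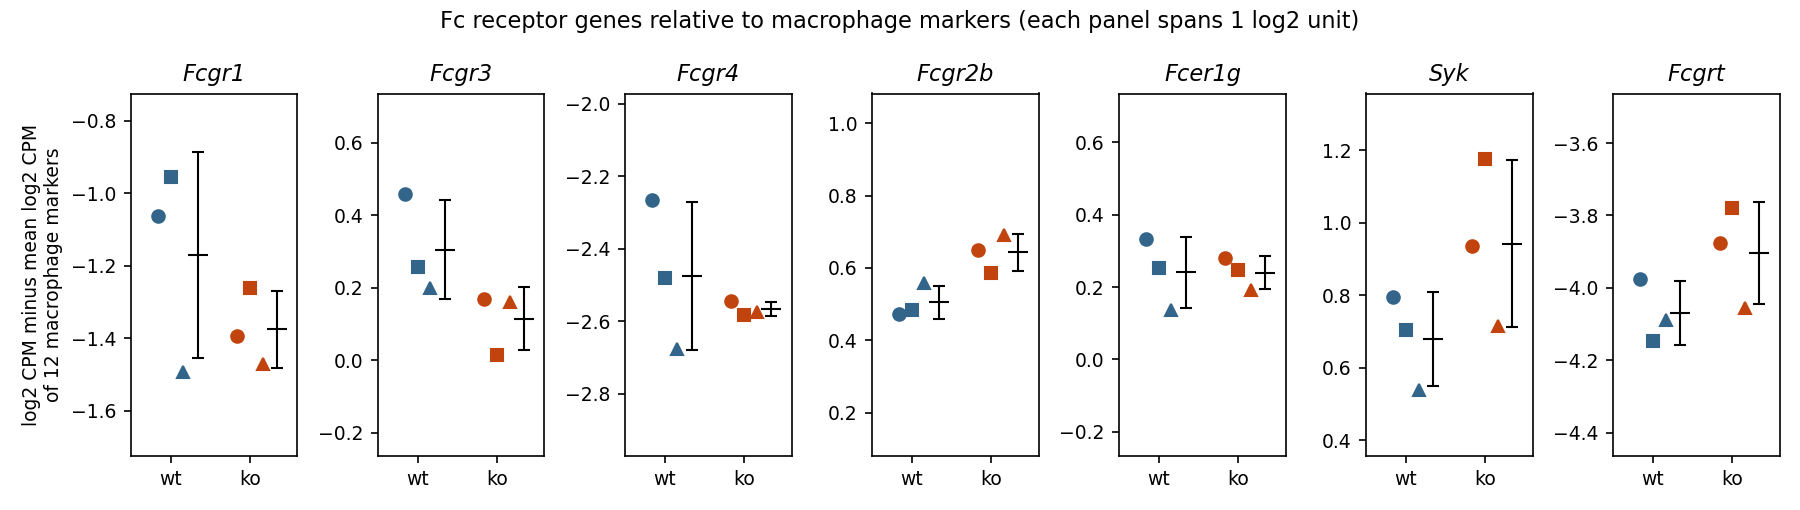
log2 CPM of each gene minus the mean log2 CPM of the 12 macrophage markers in the same library, with group mean and SD. Points are blue for wt and red for ko, circles, squares and triangles are replicates 1, 2 and 3, and every panel spans 1 log2 unit at its own level. Libraries labelled ko lie below wt for Fcgr3 and above wt for Fcgr2b.

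Genes of the pathway around the receptors were listed as signalling genes, effectors, other Fc receptors, partner chains and genes induced by interferon gamma. Of 75 such genes, 67 were tested, and 57 of these had a log2 fold change below 0 and 10 above, with a median of -0.36. None was called by edgeR or by DESeq2 on 6 libraries. On the lower side 24 had an unadjusted p under 0.05 by edgeR's quasi-likelihood test, beside 8.31% of all genes. On the higher side there were 2. In 27 every library labelled ko lay below every wt library, beside 12.6% of all genes. DESeq2 without wt1 and ko3 called 31, of which 29 were lower, beside 750 lower among all genes (6.21% of those tested). As for the members, leaving out ko3 lowers the mean of its group wherever ko3 is the highest library, so these calls add no support. The pathway genes given with their levels have adjusted p-values between 0.328 and 0.963 by edgeR's quasi-likelihood test.

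Of the 10 kinases that act beside Syk, 9 were lower and the median was -0.57. The Src family kinases Lyn and Fgr, which phosphorylate the receptor motifs, were among those with an unadjusted p under 0.05, as were Btk and the protein kinase C gene Prkcd. The smallest p-values belonged to the catalytic subunits of the leukocyte PI3 kinases, which support phagosome closure. Pik3cg was at 110, 81.3 and 97.9 CPM in wt1 to wt3 and at 61.5, 57.6 and 75.1 CPM in ko1 to ko3 (log2 fold change -0.58), and Pik3cd at 287, 169 and 203 CPM and at 127, 120 and 149 CPM (-0.74), both without overlap. Src was the exception, at 4.39, 15.6 and 9.60 CPM in wt1 to wt3 and at 18.9, 19.3 and 12.4 CPM in ko1 to ko3 (0.77), with overlapping groups.

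Of the 16 adaptors, exchange factors and GTPases, 13 were lower, with a median of -0.31. Vav1, which activates Rac at the phagocytic cup, was at 211, 141 and 147 CPM in wt1 to wt3 and at 99.96, 85.1 and 113 CPM in ko1 to ko3 (-0.74), and the adaptor Gab2 at 146, 136 and 135 CPM and at 107, 89.98 and 118 CPM (-0.41). Both were without overlap. The phospholipase gene Plcg1 was higher in every library labelled ko, at 10.3, 14.5 and 18.1 CPM in wt1 to wt3 and at 25.9, 32.8 and 19.7 CPM in ko1 to ko3 (0.87), while its relative Plcg2 was lower in each of them (-0.72). Sos1, a Ras exchange factor, was at 20.0, 21.6 and 29.1 CPM and at 29.2, 36.5 and 28.9 CPM (0.42).

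The inhibitors of the pathway were lower as well, in 8 of 9 cases and with a median of -0.43. Ptpn6, the gene of the phosphatase SHP-1, was at 386, 223 and 239 CPM in wt1 to wt3 and at 147, 103 and 192 CPM in ko1 to ko3 (-0.94). Inpp5d, the gene of the phosphatase SHIP-1 that Fcgr2b recruits, was at 367, 245 and 244 CPM and at 174, 172 and 221 CPM (-0.59). Neither overlapped. Cblb, which encodes a ubiquitin ligase that limits receptor signalling, was the exception, at 58.2, 49.8 and 66.4 CPM in wt1 to wt3 and at 97.0, 153 and 77.5 CPM in ko1 to ko3 (0.91), with every library labelled ko above every wt library.

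Of 17 effectors of phagocytosis and the oxidative burst, 16 were lower, with a median of -0.46. The NADPH oxidase subunit gene Ncf1 was at 347, 337 and 320 CPM in wt1 to wt3 and at 231, 177 and 257 CPM in ko1 to ko3 (-0.60), and the oxidase genes Ncf4 and Cybb were likewise below every wt library in each library labelled ko. The oxidase gene Cyba overlapped, at 494, 409 and 369 CPM in wt1 to wt3 and at 329, 264 and 401 CPM in ko1 to ko3 (-0.36). Myo1f, a myosin of the phagocytic cup, was at 526, 327 and 348 CPM and at 205, 153 and 287 CPM (-0.90). Actr2, a subunit of the actin-branching Arp2/3 complex, did not follow them, at 486, 633 and 750 CPM in wt1 to wt3 and at 622, 522 and 753 CPM in ko1 to ko3 (0.02).

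Interferon gamma induces Fcgr1 in macrophages, so 11 genes that it induces were listed with the receptors. Of these, 9 were lower, with a median of -0.39. By edgeR's quasi-likelihood test 4 had an unadjusted p under 0.05 on the lower side, beside 8.31% of all genes, and 1 on the higher side. In 2 every library labelled ko lay below every wt library, beside 12.6% of all genes. The summed level of the list overlapped between the groups, at 1421 to 1971 CPM in wt libraries and 1367 to 1522 CPM in those labelled ko. The GTPase gene Gbp2 was at 217, 277 and 177 CPM in wt1 to wt3 and at 149, 114 and 158 CPM in ko1 to ko3 (-0.67), with its lowest wt value in wt3, as for Fcgr1. Irf1, a transcription factor gene induced early, went the other way, at 300, 286 and 226 CPM in wt1 to wt3 and at 394, 412 and 375 CPM in ko1 to ko3 (0.54), above every wt library. Irgm1 was at 40.6, 52.1 and 45.7 CPM and at 53.4, 51.4 and 43.6 CPM (0.10).

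Among receptors and chains that pair with the members, 7 of 9 tested were lower with a median of -0.29. B2m, the partner of Fcgrt, was at 2066, 1972 and 1834 CPM in wt1 to wt3 and at 1585, 1498 and 1717 CPM in ko1 to ko3 (-0.29), without overlap, a difference close in size to that of Fcgrt. Tyrobp, the other common signalling chain of myeloid cells and a partner of Syk, was at 884, 708 and 638 CPM and at 560, 402 and 665 CPM (-0.45), overlapping through ko3. Cd247 and Ncr1 were low and higher on average in libraries labelled ko, at 3.01, 3.58 and 7.86 CPM against 7.81, 17.2 and 5.53 CPM (1.08) for Cd247 and at 1.66, 1.21 and 1.76 CPM against 1.86, 4.89 and 1.64 CPM (0.86) for Ncr1, and both are genes of T and NK cells.

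**Figure D5:**
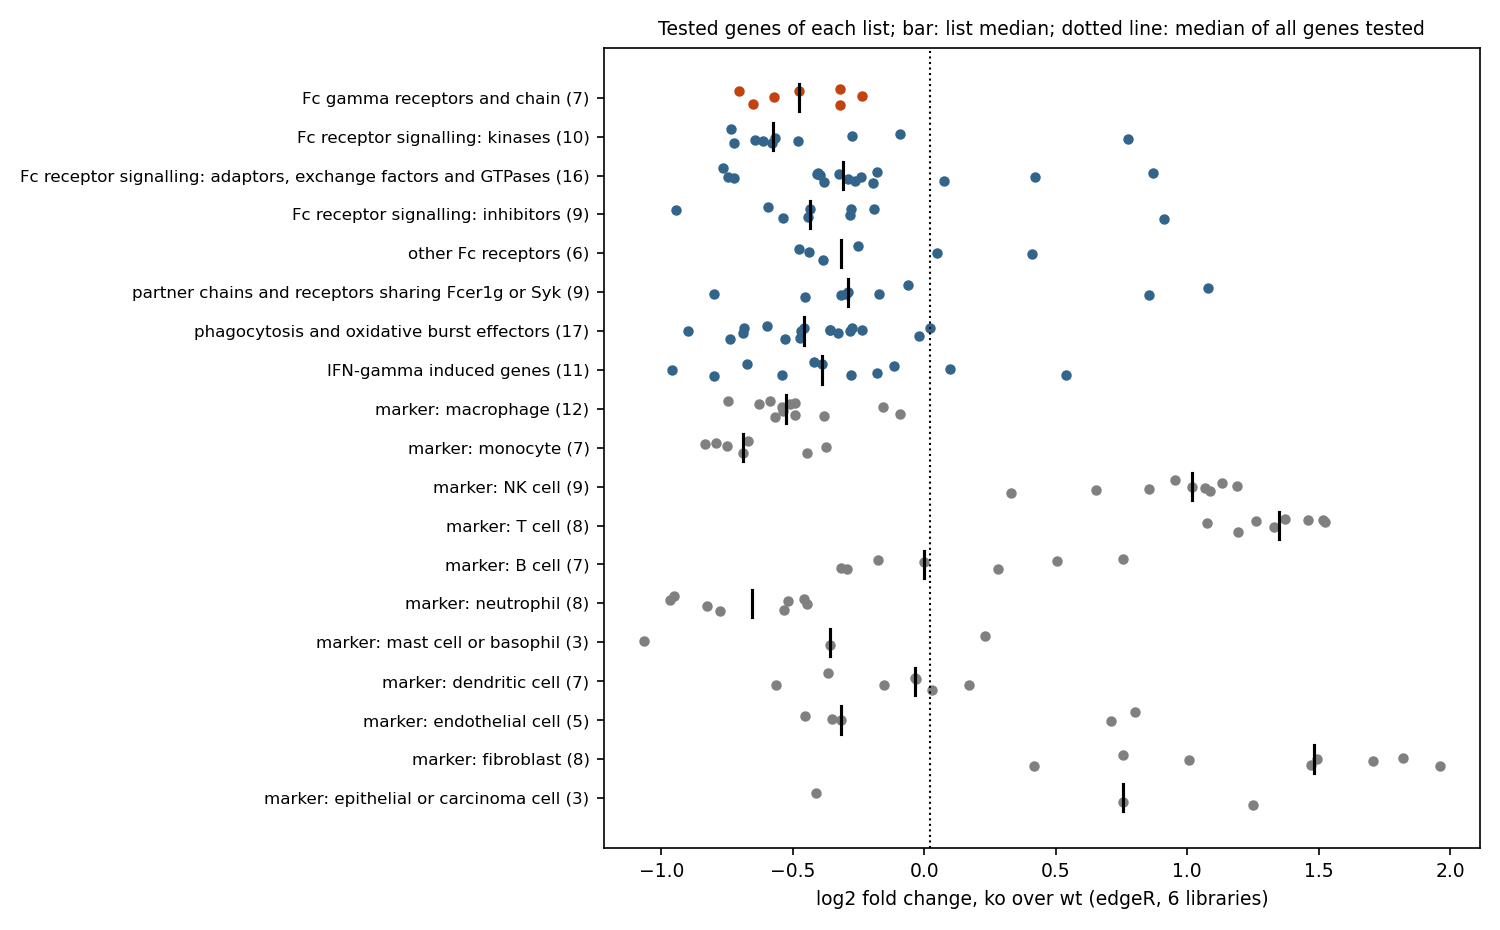
Log2 fold change (libraries labelled ko over wt, edgeR on 6 libraries) of the tested genes of each list, with 1 point per gene, a bar at the median of the list and a dotted line at the median of all 13884 genes tested (0.02). The 7 Fc receptor genes (red) lie between -0.71 and -0.23, most pathway genes (blue) lie below 0, and among the cell type markers (grey) those of macrophages, monocytes and neutrophils lie below 0 and those of T cells, NK cells and fibroblasts above.

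Of the neighbours on chromosome 1, 7 other protein-coding genes lie inside the interval that holds Fcgr2b, Fcgr4, Fcgr3 and Fcer1g, and 3 of them were tested. Cfap126, Sdhc and Tomm40l had log2 fold changes of -0.01, -0.10 and -0.10, and in none of them did every library labelled ko lie below every wt library.

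Across the 6 libraries, the patterns of the members were most alike for Fcer1g and Fcgr4 (root mean square difference of 0.080 in mean-centred log2 CPM) and for Fcgr3 and Fcgr4 (0.081), and least alike for Fcgr3 and Syk (0.29). The genes of closest pattern, 3 per member among all genes tested, were Hk3 (0.090), Slamf8 (0.094) and Por (0.0997) for Fcgr1, Cnnm2 (0.031), Emilin2 (0.034) and Tgfbi (0.038) for Fcgr3, and Gstm1 (0.029), Itgb2 (0.032) and Trf (0.034) for Fcgr4. Itgb2 encodes the beta chain of the complement receptor CR3, another receptor for opsonized particles. For Fcgr2b they were Selenbp1 (0.027), Acer3 (0.032) and Asah1 (0.043), and for Fcer1g they were Tpd52 (0.015), Skap2 (0.025) and Fxyd5 (0.030). Acer3 and Asah1 both encode ceramidases. Syk was closest to Fkbp8 (0.023), Clptm1l (0.023) and Tpm3 (0.025), and Fcgrt to Hcfc1r1 (0.023), Abhd4 (0.024) and Pbx2 (0.027). The median gene differed by 0.323 to 0.514 from a member on this measure, and with 13884 genes and 6 libraries close matches are a description of these libraries.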

How the data were processed

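For 6 libraries the authors deposited raw whole-number counts of reads on each gene, and FPKM. The deposited FPKM were checked over 109646 values to be the counts over the library total and a single length per gene. Per the labels the build is mm10, and the aligner and counter are not given in the sources used here. Counts were fitted in edgeR 4.0.16 (R 4.3.3) with filterByExpr, TMM scaling and the quasi-likelihood test without covariates, with Benjamini-Hochberg adjustment over the 13884 genes tested at a threshold of 0.05. A prior count of 2 entered log2 CPM, and each standard error is the size of the log2 fold change over the square root of F. Alternatives used DESeq2 1.42.0, limma 3.58.1 on log2(FPKM + 1) and log2(FPKM + 0.1), other scalings, other filters, a replicate block and left-out libraries, and the scaling to macrophage markers was added after the data had been seen. The members and lists were chosen with earlier results of these data known. Pathway genes named are the 2 of smallest p in each direction of each list, with 3 genes of closest pattern per member, apart from a gene not reported here. Lyn, Fgr, Btk, Prkcd, Plcg2, Ncf4, Cyba, Cybb and the neighbours on chromosome 1 were named after their values had been seen. The script was tested on simulated data.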

Additional observations from a re-analysis of the deposited data

How the results depend on the processing

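With all 6 libraries edgeR called no gene under other scalings, filters or the replicate block, and limma called none on either FPKM scale (log2(FPKM + 0.1) moved the median of all genes to 0.16), whereas DESeq2 called 36 genes, none of them a member or pathway gene. On log2(FPKM + 1) limma gave smaller differences, -0.54 for Fcgr1, -0.53 for Fcgr3, -0.43 for Fcgr4 and -0.34 for Fcer1g. For Fcgr2b it gave -0.21, for Fcgrt -0.17 and for Syk -0.081. DESeq2 without wt1 and ko3 called 1283 genes, 5 members and 31 pathway genes (Fcgr1 -0.81, Fcgr3 -0.80, Fcgr4 -0.66, Fcer1g -0.60 and Fcgr2b -0.57), and the cause of the difference from edgeR was not tested. Leaving out 1 library, edgeR and DESeq2 together called 0 to 488 genes, 0 to 2 members (Fcgr1 by DESeq2 without wt3, Fcgr1 and Fcgr3 by DESeq2 without ko3) and 0 to 12 pathway genes. The log2 fold changes then ranged from -0.90 to -0.60 for Fcgr1, -0.90 to -0.46 for Fcgr3, -0.79 to -0.42 for Fcgr4, -0.57 to -0.15 for Fcgr2b, -0.67 to -0.33 for Fcer1g, -0.46 to -0.22 for Fcgrt and -0.35 to -0.14 for Syk.

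Same-numbered libraries did not deviate together (correlations of -0.241, 0.06 and -0.337). So few correlations cannot settle whether the numbers pair the samples, which is not known. With the replicate block 0 genes, 0 members and 0 pathway genes were called (Fcgr1 -0.70, Fcgr3 -0.69). Scaling to the macrophage markers turned Fcgr2b (0.14), Fcgrt (0.17), Syk (0.27), Gab2 (0.085), Trim21 (0.10), B2m (0.22) and Tyrobp (0.016) to higher values. Genes near 0 or of low count changed sign elsewhere. Actr2 was at -0.28 (edgeR) and -0.31 (DESeq2) without wt1 and ko3 and at -0.15 to 0.16 over the single libraries left out, Fcer2a at -0.27 with the block and at -1.24 to 0.88 over those left out, Fcrl1 at -0.46 to 0.45 and Irgm1 at -0.013 to 0.19. Without macrophage scaling, all 7 members were below 0 in every alternative.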

Other observations

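Of 11 other Fc receptor genes listed, 10 were in the table and 6 were tested, of which 4 were lower and 2 higher in the libraries labelled ko, none with an unadjusted p under 0.05 by edgeR's quasi-likelihood test. Fcrlb, an intracellular protein related to the Fc receptors, was the best measured of the FcR-like genes, at 68.2, 63.6 and 76.6 CPM in wt1 to wt3 and 49.1, 33.7 and 71.1 CPM in ko1 to ko3 (log2 fold change -0.44), so ko1 and ko2 lay below the wt range and ko3 within it. Trim21, a cytosolic receptor for antibodies that enter the cell with a pathogen, was at 11.4, 8.63 and 13.4 CPM in wt1 to wt3 and 6.59, 10.6 and 6.76 CPM in ko1 to ko3 (-0.48), with overlapping groups.

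The Fc receptor genes that B cells express varied between libraries without following the groups. Fcer2a, the low-affinity IgE receptor, was at 3.01, 0.423 and 3.29 CPM in wt1 to wt3 and 1.30, 6.99 and 0.629 CPM in ko1 to ko3 (0.41). Fcmr, the receptor for IgM, was at 4.05, 0.507 and 5.4 CPM and 0.712, 5.94 and 0.957 CPM. Fcrl1 was at 4.89, 1.18 and 3.74 CPM and 2.16, 5.35 and 2.65 CPM (0.05), and Fcrla at 4.41, 0.902 and 2.09 CPM and 0.305, 4.39 and 1.504 CPM. In all 4 genes wt2, ko1 and ko3 were the 3 lowest libraries, and the summed B cell markers were lowest in the same libraries, at 52.2, 9.02 and 51.9 CPM in wt1 to wt3 and 20.7, 77.8 and 18.2 CPM in ko1 to ko3. Fcer1a and Ms4a2, subunits of the high-affinity IgE receptor of mast cells that also uses Fcer1g, had between 0 and 5 counts in each library, and 6 of the 9 mast cell or basophil markers were too low to be tested. Nearly all of the summed level of that list (175 to 367 CPM) came from Hdc (172 to 366 CPM).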
